A study of Mus musculus with 31 samples.

Results

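Gamma crystallins are a family of lens proteins, and 8 of their genes (*Cryga*, *Crygb*, *Crygc*, *Crygd*, *Cryge*, *Crygf*, *Crygs* and *Crygn*) were followed through all 20 eyes available here. The study's methods list a further WT female eye, and the WT female eyes here are numbered 1, 2 and 4. They were chosen by gene symbol among 34832 gene names on the array. Their 11 probes, of 55681 on the array, each occupy 1 spot. All 11 were above the minimum signal of 500 and were tested with 14052 probes in total. RNA came from E13.5 (embryonic day 13.5) eyes of C57BL/6N mice. The eyes had a normal outward appearance (type 1), and their pigmented epithelial layer had been removed by surgery. The groups were 3 WT female, 3 WT male, 3 hemizygous mutant male (*Ftx*-/Y) and 11 homozygous mutant female (*Ftx*-/-) eyes, and each *Ftx*-/- eye was measured on 2 arrays, whose values were averaged. *Ftx* is an X-linked long non-coding RNA gene of the X-inactivation centre, and the mutant allele also abolishes the microRNAs that lie in one of its introns. The groups ask whether loss of *Ftx* changes expression in each sex.

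Crystallins are the soluble proteins that fill the fibre cells of the lens and give it transparency and refractive power. Gamma crystallins are compact monomers of the beta/gamma superfamily, and those of the *Cryga* to *Crygf* cluster are hallmarks of differentiating fibre cells, while mutations in several of them cause cataract. At this age the lens vesicle has been filled by elongating primary fibre cells. *Crygs*, the gene of gamma S crystallin, and *Crygn*, the gene of the more divergent gamma N crystallin, lie on other chromosomes.

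The array reads each gene through 60-base probes, and those on which the differences between members turn are shown first. By the positions in the files (mm9), *Cryge*, *Crygd*, *Crygc*, *Crygb* and *Cryga* follow each other on the minus strand of chromosome 1, and *Crygf* lies farther along on the plus strand. The *Crygb* probe (chr1:65127054-65127113) read the member with the largest fall from WT female to *Ftx*-/- eyes. The *Cryge* probe (chr1:65095171-65095230) and a *Crygf* probe (A_55_P1975266, chr1:65974793-65974852) share a run of 26 bases and gave different results. A further *Crygf* probe (A_55_P1975265, chr1:65974561-65974620) shares at most 14 bases with any other member probe. Capitals mark the shared run, and the last bases of the *Cryge* probe and of the A_55_P1975266 probe are left out.
Crygb A_65_P08491: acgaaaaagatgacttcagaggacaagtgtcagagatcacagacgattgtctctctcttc
Cryge A_55_P1975250: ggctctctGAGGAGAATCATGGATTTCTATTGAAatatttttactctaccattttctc
Crygf A_55_P1975266: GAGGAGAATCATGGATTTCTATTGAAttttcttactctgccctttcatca
Crygf A_55_P1975265: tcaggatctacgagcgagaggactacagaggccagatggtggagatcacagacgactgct

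*Crygc* was read by 3 probes. The A_51_P116796 probe spans a gap in the genome (chr1:65118397-65119746), A_55_P1955364 lies at chr1:65119760-65119819, and A_55_P1975275 lies at chr1:65118173-65118232. For A_55_P1955364 the file lists a *Crygb* transcript beside those of *Crygc*, so its signal may hold both. The *Cryga* probe (chr1:65147137-65147196) and the *Crygd* probe (chr1:65108602-65108661) share a run of 20 bases. The *Crygn* probe lies at chr5:24261869-24261928, and the *Crygs* probe lies at chr16:22805277-22805336. How much each probe binds transcripts of the other members was not measured.

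Because most members moved together in *Ftx*-/- eyes, the 100 bases before each annotated start are shown for the cluster genes (RefSeq, GRCm38.p6). All 6 of the cluster genes carry TTTGTG, 49 to 77 bases before the start, and nearer to it TATATA, both in capitals. These letters were found by comparing the promoters, so that their presence in all of them is no test.
Cryga chr1:65103364-65103463 (minus strand): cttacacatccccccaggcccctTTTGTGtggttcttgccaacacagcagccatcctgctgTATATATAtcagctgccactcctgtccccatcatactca
Crygb chr1:65082291-65082390 (minus strand): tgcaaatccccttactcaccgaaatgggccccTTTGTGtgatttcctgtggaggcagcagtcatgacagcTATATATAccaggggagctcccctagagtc
Crygc chr1:65073533-65073632 (minus strand): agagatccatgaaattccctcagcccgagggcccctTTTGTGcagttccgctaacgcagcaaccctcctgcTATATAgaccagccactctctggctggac
Crygd chr1:65063441-65063540 (minus strand): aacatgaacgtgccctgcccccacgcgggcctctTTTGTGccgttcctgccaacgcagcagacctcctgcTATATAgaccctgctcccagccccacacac
Cryge chr1:65051164-65051263 (minus strand): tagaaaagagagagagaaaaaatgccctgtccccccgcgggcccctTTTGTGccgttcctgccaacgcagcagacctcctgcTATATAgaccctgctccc
Crygf chr1:65926422-65926521 (plus strand): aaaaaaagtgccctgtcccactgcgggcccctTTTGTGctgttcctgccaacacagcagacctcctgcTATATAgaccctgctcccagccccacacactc

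In the 250 bases before the start, TTTGTG on either strand was found in 15.6% of all 32851 promoters of the table and TATATA in 5.25%. *Crygn* also holds TATATA and *Crygs* holds neither. The *Cryge* and *Crygf* promoters were the most alike of the cluster, with 211 of 236 bases identical (89.4%) at the best ungapped shift. Of the letters searched for lens regulators, on both strands, those recognised by large Maf proteins (TGCTGA, 16.1% of all promoters) were in *Cryga*, *Crygc*, *Crygs* and *Crygn*. A Sox core written ACAAT (27.7%) was in *Crygd*, *Cryge*, *Crygf* and *Crygs*, and one written ACAAAG (16.5%) was in *Cryga* and *Crygb*, where it overlaps TTTGTG on the other strand in *Crygb*. TATAAA (12.4%) and the Pitx-type homeodomain letters TAATCC (6.25%) were in *Crygs* alone. The pair of heat shock units GAANNTTC (6.69%) was in none of the 8 promoters. These matches describe the letters in the windows.

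Over the series, 48.2 to 70.4% of probe spots per array were well above background. The member probes were so on 31 of 31 arrays, and none of their spots was saturated or flagged. The arrays came from 4 slides. Slide 1, scanned apart from the others, held all 6 WT eyes with *Ftx*-/Y eye 1. The remaining *Ftx*-/Y eyes shared slide 2 with *Ftx*-/- eyes 1 to 3, while *Ftx*-/- eyes 4 to 7 were on slide 3 and 8 to 11 on slide 4. No slide holds both WT female and *Ftx*-/- eyes. For *Ftx* itself (listed as B230206F22Rik), the signal of probe A_55_P2175002 was 50.04 to 134 in WT female, 101 to 110 in WT male, 13.2 to 18.6 in *Ftx*-/Y and 8.25 to 37.4 in *Ftx*-/- eyes. It was well above background on each WT array, on no *Ftx*-/Y array and on 9 of the 22 *Ftx*-/- arrays. Its other probe, A_55_P2175007, rose clear of the background on 3 arrays in all (2 WT female, 1 *Ftx*-/-), with signals of 23 to 49.6, 13.8 to 22.1, 6.39 to 18.6 and 6.36 to 20.1 in the same groups, and did not separate the male genotypes. Whether they lie in the deleted part is not known here. All 8 lens markers (among them *Cryaa*, *Cryba1*, *Mip* and *Foxe3*) were well above background in all 20 eyes. Their summed signal was 790797 to 855334 in WT female, 794651 to 822831 in WT male, 795643 to 831387 in *Ftx*-/Y and 668362 to 832354 in *Ftx*-/- eyes. *Cryaa* was the brightest of them, with a mean signal of 322400 in WT female and 339300 in *Ftx*-/- eyes. Of the 8 markers, 6 were called lower and 0 higher in *Ftx*-/- than in WT female eyes (limma, adjusted p under 0.05), against 18.2% of all probes called lower. Their median log2 difference was -0.73.

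Gamma crystallin signal was lower in *Ftx*-/- than in WT female eyes for 9 of the 11 probes, which belong to 7 of the 8 genes (limma, adjusted p under 0.05 after Benjamini-Hochberg adjustment over the probes tested). Of all probes tested, 18.2% were called lower in the same comparison. The differences of the 11 probes ran from -0.95 to -0.10 on the log2 scale with a median of -0.47, and the median of all probes was -0.02. The exception among the genes was *Cryge*. In 7 of the 11 probes every *Ftx*-/- eye was below every WT female eye, against 11.4% of all probes. In RNA of a dissected eye, fewer lens cells and less RNA per lens cell cannot be told apart. Without WT female eye 1 or 2 the calls were 6 of 11, and without eye 4 they were 5, as a *Crygc*, a *Crygf*, the *Crygs* and the *Crygn* probe missed the threshold (adjusted p = 0.055 to 0.11). With slide as a fixed block, which can be estimated only through the *Ftx*-/Y eyes, the differences were -0.96 to -0.03 and 0 of 11 were called (limma, adjusted p = 0.19 to 0.93, 5 at an unadjusted p under 0.05), where 0.0783% of all probes were called, so that slide and genotype cannot be told apart in full.

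**Figure D1:**
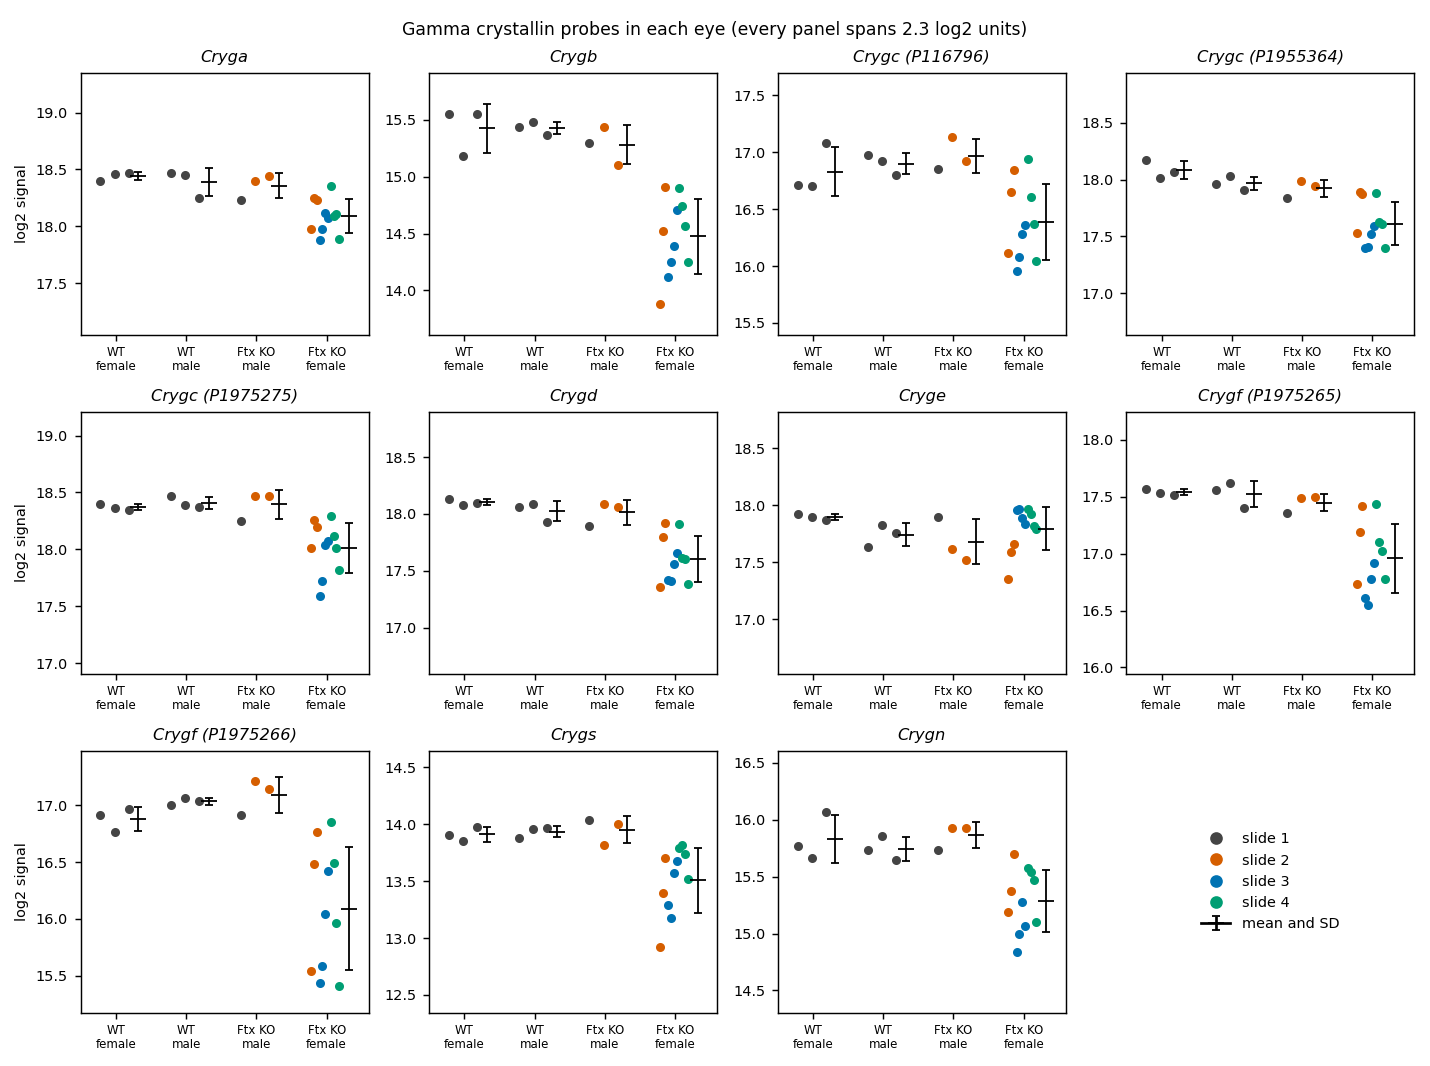
Log2 signal of each gamma crystallin probe (1 panel a probe, the probe's ID in parentheses where a gene has several) in every eye of the 4 groups, coloured by slide, with the mean and SD beside the points. The mean of the *Ftx*-/- eyes lies below those of the other groups in most panels. These eyes spread widely, and in most panels some of them overlap another group. In the *Cryge* panel those of slides 3 and 4 lie at the WT female level and those of slide 2 lie lower.

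*Crygb* showed the largest fall. Its log2 signal was 15.55, 15.18 and 15.55 in WT female eyes and 13.88 (lowest), 14.52 (median) and 14.91 (highest) in the 11 *Ftx*-/- eyes. All *Ftx*-/- eyes were below all WT eyes of either sex, and the female groups were 0.28 apart at their nearest eyes. The difference was -0.95 ± 0.17 (SE, adjusted p = 0.00047), or 51.7% of the WT female level. The call was kept with the *Ftx*-/- eyes of each slide taken alone, with differences from the WT female eyes of -0.99 on slide 2, -1.06 on slide 3 and -0.81 on slide 4 (adjusted p = 0.026, 0.00055 and 0.012), and was lost with the methods' t-test (adjusted p = 0.056) besides the fixed slide block. Of the other called probes only that of *Cryga* also kept its call with each slide alone. All WT female eyes were on slide 1, so each of these comparisons still sets 1 slide against another.

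*Crygf* fell in both of its probes. With A_55_P1975265, WT female eyes had log2 signals of 17.57, 17.53 and 17.52 and *Ftx*-/- eyes had 16.55, 16.92 and 17.44 as the lowest, median and highest value, so the groups did not overlap. The difference was -0.58 ± 0.15 (SE, adjusted p = 0.0064). With A_55_P1975266, WT female eyes had 16.91, 16.76 and 16.97 and *Ftx*-/- eyes had 15.41, 16.04 and 16.85. Here the highest *Ftx*-/- eye lay among the WT female eyes. This probe had the widest spread of all members among *Ftx*-/- eyes (SD 0.54, n = 11). Its difference was -0.79 ± 0.26 (SE, adjusted p = 0.024), and it missed the threshold when any single WT female eye was left out (adjusted p = 0.055 to 0.086), when the fit held those 2 groups alone (0.051), with slide as a random block (0.12) and with the *Ftx*-/- eyes of slide 2 (0.14) or slide 4 (0.12) alone. A_55_P1975265 missed it with slide 2 alone (adjusted p = 0.087).

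*Cryga* was 18.40, 18.46 and 18.47 in WT female eyes and 17.88, 18.09 and 18.35 (lowest, median, highest) in *Ftx*-/- eyes. The difference was -0.36 ± 0.09 (SE, adjusted p = 0.0033). *Crygd* was 18.13, 18.08 and 18.10 in WT female eyes against 17.36, 17.60 and 17.92, with a difference of -0.50 ± 0.11 (SE, adjusted p = 0.0016). In both genes all *Ftx*-/- eyes lay below all WT female eyes, and the WT female eyes were close together (SD 0.04 and 0.02, n = 3). For *Cryga*, WT female eye 4 (signal 363916) was at the top of the normalized scale. The part of that limit in its SD was not tested. With the *Ftx*-/- eyes of slide 2 alone, *Crygd* missed the threshold (adjusted p = 0.060).

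All 3 *Crygc* probes had a lower mean in *Ftx*-/- eyes, and 2 of them were called. A_55_P1955364 was 18.17, 18.01 and 18.07 in WT female eyes and 17.40, 17.59 and 17.89 (lowest, median, highest) in *Ftx*-/- eyes, and its difference was -0.47 ± 0.10 (SE, adjusted p = 0.0014). A_55_P1975275 was 18.40, 18.36 and 18.35 against 17.59, 18.04 and 18.29, with a difference of -0.36 ± 0.11 (SE, adjusted p = 0.020). Neither probe had overlapping groups. The former missed the threshold with the *Ftx*-/- eyes of slide 2 alone (adjusted p = 0.054). The latter missed it when any WT female eye was left out (adjusted p = 0.055 to 0.081), with slide as a random block (0.067) and with slide 2 (0.056) or slide 4 (0.051) alone. A_51_P116796, which spans a gap, was 16.71, 16.70 and 17.08 in WT female eyes, where eye 4 stood above the others, against 15.96, 16.36 and 16.94. Its difference of -0.44 ± 0.17 (SE) was like those of the other probes in size and missed the threshold (adjusted p = 0.052).

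*Cryge* did not pass the test. WT female eyes had log2 signals of 17.92, 17.90 and 17.87 and *Ftx*-/- eyes had 17.35, 17.84 and 17.97 as the lowest, median and highest value, and 7 of the 11 were below the WT female mean. The difference was -0.10 ± 0.11 (SE, adjusted p = 0.51), with a 95% interval from -0.32 to 0.13. Its values differed between slides. The *Ftx*-/- eyes of slide 2 were at 17.35, 17.59 and 17.66 and the *Ftx*-/Y eyes of slide 2 at 17.62 and 17.52, while the *Ftx*-/- eyes of slides 3 and 4 were at 17.79 to 17.97 and *Ftx*-/Y eye 1, on slide 1, was at 17.90. Against WT female eyes, the *Ftx*-/- eyes of slide 2 alone gave -0.36 (adjusted p = 0.018), those of slide 3 alone 0.02 (adjusted p = 0.69) and those of slide 4 alone -0.02 (adjusted p = 0.81). *Crygf*, read by a probe that shares 26 bases with that of *Cryge*, had *Ftx*-/- means of 16.26, 15.87 and 16.18 on slides 2, 3 and 4. The part of the slide in the *Cryge* values was not tested.

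The members outside the cluster also fell. *Crygs* was 13.91, 13.85 and 13.98 in WT female eyes and 12.92, 13.57 and 13.82 (lowest, median, highest) in *Ftx*-/- eyes, without overlap. Its difference was -0.40 ± 0.14 (SE, adjusted p = 0.032). Of the 9 calls it was lost under the most alternatives (11 of 31), and leaving out any WT female eye (adjusted p = 0.070 to 0.11), scaling to the 75th percentile (0.070) the fit without a signal minimum (0.055), slide as a random block (0.13) or the *Ftx*-/- eyes of slide 2 (0.053) or slide 4 (0.12) alone each ended it. The difference was -0.20 with slide 4 alone and -0.12 in the table without normalization. *Crygn* was 15.77, 15.66 and 16.07 in WT female eyes and 14.84, 15.28 and 15.70 in *Ftx*-/- eyes. The highest *Ftx*-/- eye lay just above the lowest WT female eye. Its difference was -0.55 ± 0.14 (SE, adjusted p = 0.0066), and without WT female eye 4 it was -0.43 (adjusted p = 0.063). The methods' t-test (adjusted p = 0.13) and the *Ftx*-/- eyes of slide 2 (0.085) or slide 4 (0.059) alone ended the *Crygn* call too. In all, the *Crygn* call was lost under 6 of 31 alternatives.

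The size of the falls depended on the normalization for the brightest members. *Cryga* was the brightest probe of all on 2 WT arrays and *Crygc* A_55_P1975275 on 2 *Ftx*-/Y arrays, so that their values there were the top of the normalized scale. Quantile-spline normalization gives all arrays nearly the same top (363900 to 369600). When each array was instead divided by its 75th percentile, the female difference was -0.60 ± 0.11 (SE) for *Cryga*, -0.59 ± 0.14 for *Crygc* A_55_P1975275 and -0.30 ± 0.185 for *Cryge*, each farther from 0 than above. The median over the 11 probes was then -0.60. *Crygc* A_51_P116796 came under the threshold (-0.56 ± 0.16 SE, adjusted p = 0.011), *Crygs* no longer passed it (-0.36, adjusted p = 0.070), and *Cryge* still missed it (adjusted p = 0.22).

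**Figure D2:**
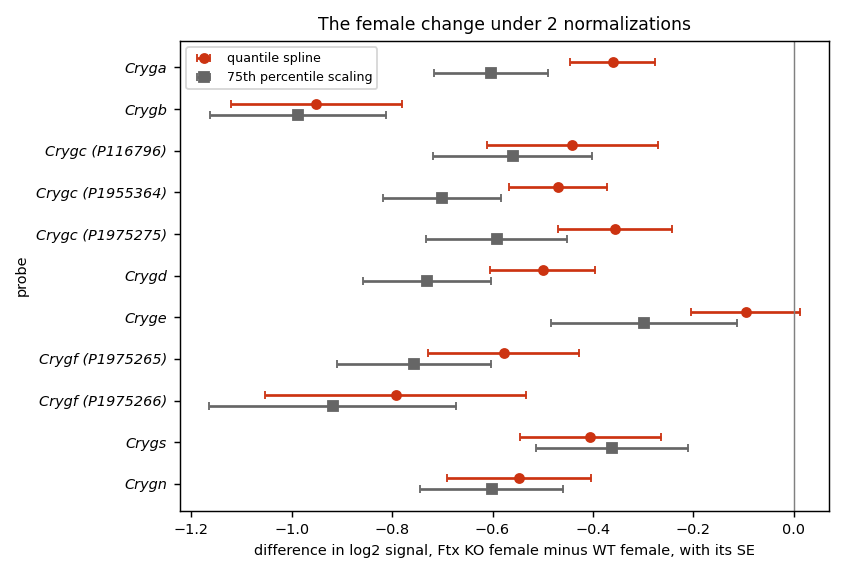
Difference in log2 signal between *Ftx*-/- and WT female eyes for each probe, with its SE, after quantile-spline normalization (circles) and after division by the 75th percentile of the array (squares). All values are below 0 under both, and 10 of the 11, all but *Crygs*, lie farther from 0 with the percentile.

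In males no gamma crystallin passed the test. Of the 11 probes 0 were called between *Ftx*-/Y and WT male eyes (limma), where 0.0213% of all probes were called, and 0 of 11 had an unadjusted p under 0.05. The differences ran from -0.15 (*Crygb*) to 0.12 (*Crygn*) with a median of -0.02, where 7 of 11 were below 0. The median was -0.125 (9 below 0) with slide as a fixed block or within slide 1, where *Ftx*-/Y eye 1 stands alone, -0.10 (9 below 0) with the 75th percentile, and -0.21 (11 below 0) in the table without normalization. It was 0.02 (4 below 0) with quantile normalization, 0.03 (4 below 0) without *Ftx*-/Y eye 1 and 0.001 (5 below 0) without WT male eye 1, so that its sign was not settled. In each of these 0 of 11 were called. For *Crygb* the WT male eyes were at 15.44, 15.48 and 15.37 and the *Ftx*-/Y eyes at 15.30, 15.44 and 15.10, and the 95% interval of the difference was -0.60 to 0.31. For *Cryga* the values were 18.47, 18.45 and 18.25 against 18.23, 18.40 and 18.44, with an interval of -0.26 to 0.19. In both genes the groups overlapped. For *Crygd* the WT male eyes were at 18.06, 18.09 and 17.93 and the *Ftx*-/Y eyes at 17.89, 18.09 and 18.06. For *Crygs* they were at 13.88, 13.96 and 13.97 against 13.82 to 14.04, and for *Crygn* at 15.73, 15.86 and 15.65 against 15.73, 15.93 and 15.93. No one of these 3 genes separated the male groups. For *Crygf* A_55_P1975266 the values were 17.00, 17.06 and 17.04 against 16.91, 17.21 and 17.14, and for *Cryge* they were 17.63, 17.83 and 17.76 against 17.90, 17.62 and 17.52. The intervals of 3 eyes against 3 were wide, up to that of *Crygf* A_55_P1975266, from -0.64 to 0.75. For each of the 9 probes called in females, the female difference lay below the lower end of the male interval, which leaves out the error of the female value.

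**Figure D3:**
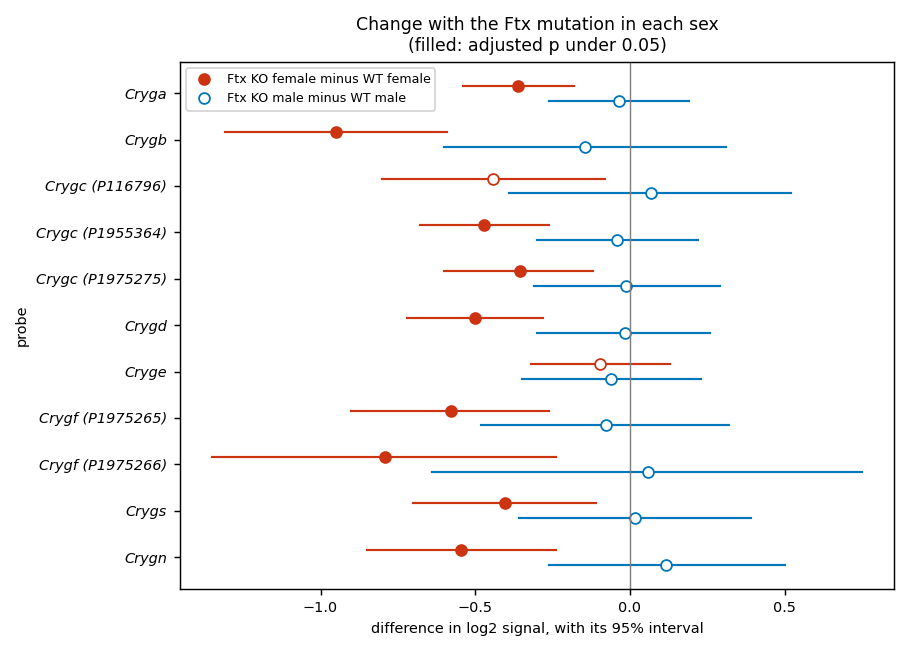
Difference in log2 signal with the *Ftx* mutation for each gamma crystallin probe in females (red) and males (blue), with 95% intervals from the fit, filled where the adjusted p is under 0.05. In females 9 of 11 probes are filled and all lie below 0, and in males none is filled and every interval includes 0.

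Whether the change differed between the sexes was tested as an interaction. The female change was the lower for all 11 probes, by -0.85 to -0.04 on the log2 scale, and 0 of 11 passed the adjusted threshold (limma, adjusted p = 0.21 to 0.94), as did 0% of all probes. The exception to that direction was 1 probe in the table without normalization (0.23) and when WT male eye 1 (0.02), *Ftx*-/Y eye 1 (0.08) or *Ftx*-/- eye 1 (0.01) was left out. At an unadjusted p under 0.05 there were 5 of 11 (*Cryga*, *Crygb*, *Crygc* A_55_P1955364, *Crygd* and *Crygn*), against 13.8% of all probes. That count was 9 without *Ftx*-/- eye 8, 8 without *Ftx*-/- eye 2 or 3 or with the 75th percentile, and 0 in the table without normalization. The largest of these, for *Crygb*, was -0.81 ± 0.27 (SE, adjusted p = 0.21). The effect of the mutation was thus not shown to differ between the sexes after adjustment.

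*Ftx*-/- eyes were also set directly against *Ftx*-/Y eyes, a comparison in which sex differs and whose spread was estimated over all 20 eyes. *Crygb* (-0.81 ± 0.17 SE, adjusted p = 0.023) and *Crygn* (-0.58 ± 0.14 SE, adjusted p = 0.043) were called lower (limma), 2 of 11 where 1.42% of all probes were called lower. Both calls were lost with slide as a random block (-0.82 and -0.52, adjusted p = 0.055 and 0.097). Of the others, *Crygd* (-0.41, adjusted p = 0.052) and *Crygf* A_55_P1975266 (95% interval -1.55 to -0.45, adjusted p = 0.053) were nearest to the threshold, and *Cryge* had a difference of 0.12. In a fit of these 2 groups alone 0 of 11 were called (limma, smallest adjusted p = 0.061, 10 at an unadjusted p under 0.05). On slide 2, which holds eyes of both groups, the differences were -0.84 ± 0.31 (SE) for *Crygb* and -0.51 ± 0.15 for *Crygn*, with 3 eyes against 2 (adjusted p = 0.41 and 0.38). Leaving out any 1 of the *Ftx*-/Y eyes left 0 calls, leaving out *Ftx*-/- eye 1, 4, 5, 6, 7, 10 or 11 left 1, and leaving out *Ftx*-/- eye 2, 3, 8 or 9 gave 4, 6, 7 or 3. Between WT female and WT male eyes 0 of 11 probes were called (limma, 0 also at an unadjusted p under 0.05), where 0.0712% of all probes were called. The differences, female minus male, were -0.15 to 0.15, and that of *Cryge* was 0.15 (95% interval -0.13 to 0.44).

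The *Ftx*-/- eyes differed among themselves. Over the 9 probes of *Cryga* to *Crygf*, their geometric mean was lowest in eyes 4, 1, 11 and 5, at 57.6%, 58.0%, 59.2% and 60.2% of the WT female mean. It was highest in eyes 3 and 8, at 87.4% and 92.3%, and the other 5 eyes lay at 68.3 to 79.7%. All other groups lay at 92.4 to 103%, so that no *Ftx*-/- eye reached the lowest eye of the other groups, though eye 8 and *Ftx*-/Y eye 1 were nearly level. The 4 lowest eyes came from slides 2, 3 and 4. Over the 11 probes the SD was 0.15 to 0.54 between the 11 *Ftx*-/- eyes, 0.02 to 0.22 between the 3 WT female eyes and 0.03 to 0.08 between the 2 arrays of an eye. The spreads of the groups were not tested against each other.

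**Figure D4:**
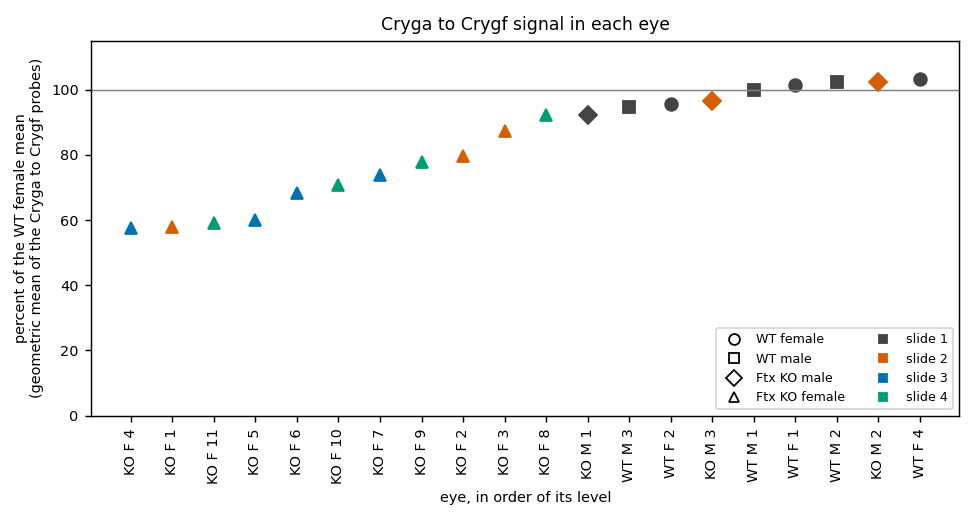
Geometric mean signal of the 9 *Cryga* to *Crygf* probes in each eye, as percent of the WT female mean, in order of its level, with the group as the shape and the slide as the colour. The 11 *Ftx*-/- female eyes (KO F) run from 57.6 to 92.3%, and the 9 other eyes lie between 92.4 and 103%.

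The members rose and fell together across the *Ftx*-/- eyes, apart from *Cryge*. Pearson's r of each probe with the others, over 11 eyes that share 1 normalization, had a median of 0.80 to 0.92 for the probes of *Cryga*, *Crygb*, *Crygc*, *Crygd*, *Crygf* and *Crygn*, of 0.64 for *Crygs* and of -0.02 for *Cryge*. The closest pair was *Crygc* A_51_P116796 with *Crygf* A_55_P1975265 (r = 0.97). *Cryge* was farthest from *Crygc* A_55_P1975275 (r = -0.30).

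Markers of other tissues were summed in each eye. The summed signal of 7 periocular mesenchyme genes (such as *Col3a1* and *Lum*) was 584 to 1605 in WT female, 1333 to 6814 in WT male, 1603 to 4268 in *Ftx*-/Y and 1965 to 26342 in *Ftx*-/- eyes. Of the 7 genes, 5 were well above background in all eyes. The minimum signal for a test was set on WT female eyes alone, and 0 of 7 reached it there. In *Ftx*-/- eyes the mean signals of *Lum*, *Col3a1*, *Dcn* and *Col1a1* were 2937, 1925, 1889 and 1358, against 196, 414, 207 and 236 in WT female eyes. In the 4 *Ftx*-/- eyes with the lowest gamma crystallin signal the mesenchyme sum was 15033 (eye 4), 26342 (eye 1), 6483 (eye 11) and 19791 (eye 5), and in those with the highest it was 3614 (eye 3) and 2639 (eye 8). Eyes 9 and 10, with gamma crystallins at 77.9% and 70.7% of the WT female mean, had 2046 and 1965. Eyes 2, 6 and 7, at 79.7%, 68.3% and 73.9%, had 10932, 6679 and 2483. WT male eye 1, at 100%, had 6814. The 6 pigment epithelium genes found on the array summed to 3897 to 6093 in WT female, 6850 to 11103 in WT male, 3732 to 6087 in *Ftx*-/Y and 2202 to 30465 in *Ftx*-/- eyes, where eye 1 was again the highest. The 6 erythroid genes summed to 109523 to 121928 in WT female, 93684 to 127170 in WT male, 138626 to 272540 in *Ftx*-/Y and 119182 to 244702 in *Ftx*-/- eyes, and 2 of the 4 tested were called higher in *Ftx*-/- than in WT female eyes, where 16.8% of all probes were. *Ftx*-/Y eyes 2 and 3, with gamma crystallins at 102% and 96.5% of the WT female mean, had erythroid sums of 272540 and 183995. Of the muscle genes, *Myf5* and *Myod1* were well above background in 0 of 20 eyes and *Myog* in 2, while the mean signal of *Actc1* was 36.3 in WT female and 315.5 in *Ftx*-/- eyes and that of *Myl1* was 39.1 and 151.5. Retinal progenitor genes summed to 310222 to 345568 in WT female, 359560 to 372694 in WT male, 375793 to 464141 in *Ftx*-/Y and 307609 to 445851 in *Ftx*-/- eyes, and 1 of the 8 tested was called higher in *Ftx*-/- than in WT female eyes. Retinal neuron genes summed to 111574 to 130845, 121475 to 133891, 133719 to 135960 and 103961 to 127810 in the same groups, and 3 of the 7 tested were called lower and 1 higher (18.2% and 16.8% of all probes). Endothelial genes summed to 5182 to 5471, 5795 to 6737, 5779 to 6106 and 5011 to 7534, surface ectoderm genes to 5617 to 6939, 6034 to 7270, 6039 to 6202 and 3730 to 13726, and muscle genes to 397 to 576, 393 to 657, 394 to 1890 and 318 to 2945. The part of these tissues in the crystallin values was not tested.

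Other lens genes were followed in the same way. Of 37 probes for 29 further lens genes, 21 were called lower and 2 higher in *Ftx*-/- than in WT female eyes, against 18.2% called lower and 16.8% called higher among all probes, and 0 of 37 were called in males (limma). At an unadjusted p under 0.05 there were 2 of 37 in males, against 11.8% of all probes. Their median difference in females was -0.46. With the minimum signal set over all 20 eyes, 20 of 36 were called lower, since *Hsf4* met it only through the WT female eyes. The 21 lower calls became 0 with slide as a fixed block (as did nearly all calls on the array), 12 with the *Ftx*-/- eyes of slide 2 alone, 13 with the methods' t-test, 14 in the table without normalization and 16 with slide as a random block or without WT female eye 4. The lists were written with earlier results of these data known.

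Among alpha and beta crystallins, the chaperone-like and structural partners of the gamma crystallins in the fibre cell, 9 of 11 probes were lower (18.2% of all probes). Their median was -0.53. The lowest were *Cryab* A_55_P1964408 (-0.87 ± 0.13 SE, adjusted p = 9.6e-05), *Cryaa* A_55_P2007645 (-0.81 ± 0.16) and *Cryba4* A_55_P2000034 (-0.77 ± 0.14). The highest were *Crybb3* (-0.31 ± 0.12), *Cryba1* (-0.23 ± 0.06) and *Cryaa* A_55_P2007646 (0.08 ± 0.06, adjusted p = 0.38). The 2 *Cryaa* probes thus disagreed, and the one that did not pass the test lay near the top of the normalized scale (mean 18.29 in WT female and 18.37 in *Ftx*-/- eyes). *Crybb2* was below the minimum signal and was not tested.

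Among other fibre genes, 7 of 11 probes were lower (18.2% of all probes) and the median was -0.86. Among the lowest were *Bfsp1*, a beaded filament protein (-1.11 ± 0.18 SE, adjusted p = 0.00026), and *Lim2*, a fibre membrane protein (-1.04 ± 0.15, 0.00010). The highest were *Mip*, the fibre aquaporin (-0.26 ± 0.11 SE, adjusted p = 0.069), *Cdkn1c*, a cell cycle inhibitor (-0.24 ± 0.15, 0.23), and *Caprin2* A_55_P2147250 (-0.18 ± 0.15, 0.37), none of which passed the test. *Lgsn*, *Birc7*, *Dnase2b* and *Hspb1* were not tested because their signal was under the minimum.

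Of the transcription factors, 5 of 15 probes were lower and 2 higher, against 18.2% and 16.8% of all probes. Their median was -0.22. *Foxe3*, a lens epithelium factor (-0.93 ± 0.16 SE, adjusted p = 0.00040), *Prox1*, needed for fibre elongation (-0.85 ± 0.20), *Sox1*, an activator of gamma crystallin promoters (-0.69 ± 0.14), and *Pitx3* (-0.65 ± 0.10) were lower. So was *Hsf4*, a heat shock factor of the lens (-0.99 ± 0.19 SE), but with log2 means of 9.36 in WT female and 8.37 in *Ftx*-/- eyes its call is no support, because of the minimum signal. *Sox2*, which also acts on crystallin enhancers and is expressed in retinal progenitors (0.37 ± 0.07 SE, adjusted p = 0.00075), and *Mab21l1* (0.35 ± 0.12, 0.030) were higher. *Maf*, the large Maf factor of the fibre cell (-0.05 ± 0.17 SE, adjusted p = 0.83), *Pax6* (-0.27 ± 0.12, 0.087) and *Six3* (-0.40 ± 0.22, 0.16) did not pass the test. In males the same factors differed by -0.27 (*Sox1*) to 0.46 (*Mab21l1*), none of them called.

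**Figure D5:**
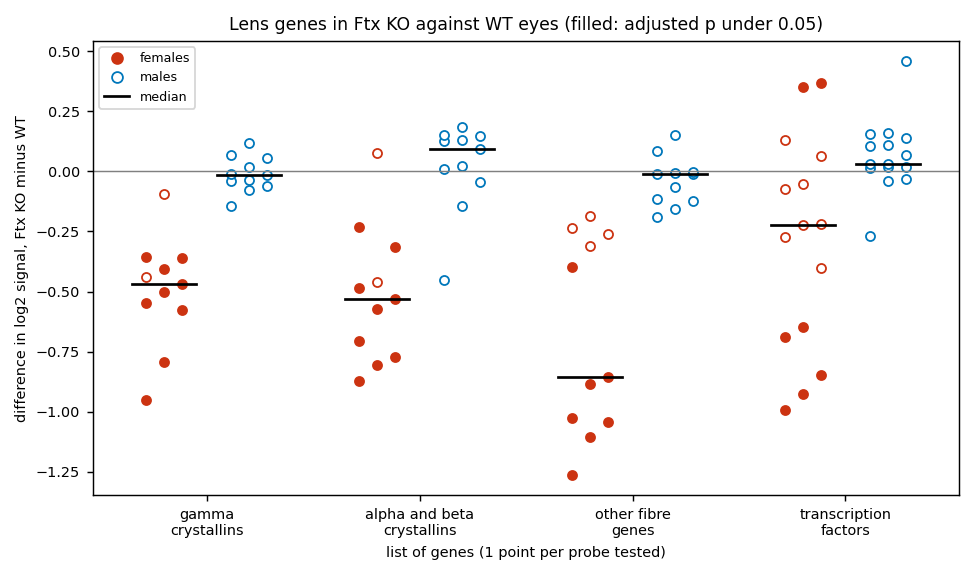
Difference in log2 signal between *Ftx* mutant and WT eyes of females (red) and males (blue), 1 point for each probe of the gamma crystallins and of 3 lists of lens genes, filled where the adjusted p is under 0.05, with the median as a line. The female medians are -0.47, -0.53, -0.86 and -0.22 in the order shown, and the male medians lie between -0.02 and 0.09.

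The genes most like *Cryga* to *Crygf* were sought by Pearson's r, over the 11 *Ftx*-/- eyes, with the mean of the 9 centred probe values, the members left out. The highest were *Slc45a1* (r = 0.97), *Bfsp1* (0.95), *Dusp26* (0.94), *Nrcam* (0.94), *1810041L15Rik* (0.94), *Igfbpl1* (0.935), *Sel1l3* (0.93), *Kcnd3* (0.93), *Rufy3* (0.93) and *Epb4.1l4b* (0.93). Over all 20 eyes, r was 0.97 for *Bfsp1* and *Nrcam* and 0.53 for *Rufy3*, the lowest of these. Of the 10, *Bfsp1*, *Nrcam*, *Sel1l3* and *Epb4.1l4b* were called lower in *Ftx*-/- than in WT female eyes. The lowest r were those of *Cd83* (-0.95), *Fam3c* (-0.93), *Cmtm3* (-0.92), *Rhog* (-0.92) and *Cd82* (-0.905). Over all 20 eyes r was -0.88 for *Fam3c*, -0.68 for *Cd83*, -0.35 for *Cmtm3*, -0.08 for *Cd82* and 0.12 for *Rhog*. *Fam3c* was called higher in *Ftx*-/- than in WT female eyes (0.39, adjusted p = 0.00032), and *Rhog* and *Cd82* were called lower.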

How the data were processed

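The authors deposited, for each spot of 31 Agilent 8x60K 1-colour arrays, the background-subtracted intensity that Feature Extraction 11.0.1.1 gave, per the file headers, not normalized between arrays, and a series table with the same intensities. Intensities were normalized with the quantile-spline method that the methods name (affy), written out in R 4.3.3. Flagged spots (120 non-uniform, 5639 population outliers) were left out. Spots of a probe were averaged and log2 values of an eye's 2 arrays were averaged. Probes whose WT female eyes averaged over 500 in signal were tested with limma 3.58.1 (trend) in 1 fit over all 20 eyes, with Benjamini-Hochberg adjustment, and called at an adjusted p under 0.05. The fit was tested on simulated data. Per the study's methods, every experiment used 3 or more biologically independent samples. Whether eyes shared an embryo or litter is not given in the sources used here. P-values then measure the spread between these samples. The number of eyes limits the precision. Probe positions are mm9, and no annotation of that build was used. Promoters are from RefSeq (GRCm38.p6), with all 8 members matched. Named were all member probes, for each list the 3 highest and 3 lowest differences in females, known promoter regulators, and the genes highest and lowest in likeness, of which some are not reported here. The members and lists were chosen with earlier results of these data known. Alternatives were other normalizations, filters, tests, blocks and eyes left out, those by single *Ftx*-/- eye or slide added after the data were seen.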

Additional observations from a re-analysis of the deposited data

How the results depend on the processing

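All 11 gamma crystallin differences between *Ftx*-/- and WT female eyes stayed below 0 under every alternative run, except that of *Cryge* with the *Ftx*-/- eyes of slide 3 alone (0.024). The 9 calls became 0 with slide as a fixed block, 3 with the *Ftx*-/- eyes of slide 2 alone, 5 with those of slide 4 alone, and 5 to 10 when 1 eye was left out (5 without WT female eye 4). They were 6 with slide as a random block and 7 to 10 under the others. Over all 14052 probes the calls, in either direction, were 4925 in the first fit. That number was 11 with slide as a fixed block, 4285 with slide 2 alone and 3583 with slide 4 alone. It was 2453 with slide as a random block and 3822 without WT female eye 4. The 23 calls among other lens probes became 0 with the fixed slide block, 14 with the methods' t-test, 13 with slide 2 alone, and 17 to 26 with 1 eye left out. With limma's p left unadjusted and the study's fold limits (beyond 1.2 or 0.8), males had 2 of 37 lens calls in place of 0 (5.69% of all probes), the sex difference 5 gamma crystallin calls in place of 0 (1412 of 14052 probes in all), and *Ftx*-/- against *Ftx*-/Y eyes 8 in place of 2 (6.79% of all probes). Those 2 calls became 4 with normexp and quantile normalization, 1 with the 75th percentile, without the signal filter or with array 2 of each *Ftx*-/- eye, 0 with the series table, the 2 groups alone, slide as a fixed or random block or within slide 2, and 0 to 7 with 1 eye left out. In the series table, which is not normalized, the median of all probes was 0.25 higher in *Ftx*-/- than in WT female eyes while that of the members was -0.36. The deviations of same-numbered eyes gave r = -0.60 to 0.30. The groups are small and part of these pairs differ in slide, so this cannot decide whether the numbers pair the eyes. With the replicate block the female calls were 9 and the other lens calls 25, and the *Ftx*-/- against *Ftx*-/Y calls were 0 in place of 2, while 9 of 11 sex differences had an unadjusted p under 0.05 in place of 5. The cause of these changes was not tested. The members were well above background on every array.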
